A study of Rattus norvegicus with 4 samples.

Results

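The genes of calcium handling in heart muscle were followed in cultured rat heart cells that had received 1 of 4 miRNA mimics. The group holds 10 genes chosen by name, Atp2a2, Pln, Sln, Ryr2, Casq2, Trdn, Jph2, Slc8a1, Hrc and Cacna1c, and each was found once among the 15731 genes of the deposited values. The cells were ventricular cardiomyocytes of wild type Wistar rats at postnatal day 1, kept in culture after preplating to deplete other cells and transfected with a mimic of human miR-106b-5p, of miR-93-5p or of miR-25-3p, the 3 members of the miR-106b-25 cluster, or after cel-miR-67, a worm miRNA used as control. RNA was harvested 72 h after transfection, and the labels give the mimic dose as 25 nM in one protocol and 25 mM in another, and the age as day 0 in one of them. Each mimic has 1 library, so no difference below has a replicate check, and a difference between mimics and a difference between cultures cannot be told apart.

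Each heartbeat is driven by a cycle of calcium. The L-type channel, whose pore is encoded by Cacna1c, lets calcium into the cell, and this opens the ryanodine receptor Ryr2, through which the sarcoplasmic reticulum releases its store. Relaxation follows when the pump SERCA2, encoded by Atp2a2, returns calcium to the store under the restraint of the small proteins phospholamban (Pln) and sarcolipin (Sln), while the sodium-calcium exchanger Slc8a1 carries the rest out of the cell. Casq2 (calsequestrin), Trdn (triadin) and Hrc, a histidine-rich protein, lie in or at the store near Ryr2, and Jph2 (junctophilin) ties the store to the surface membrane. Atp2a2 has been reported elsewhere as a target of miR-25.

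The sequences of the miRNAs are shown because their seeds, the bases by which a miRNA pairs with its targets, set miR-25 apart from the other 2 cluster members. They are the rat forms in RefSeq on build GRCr8, where all 3 lie on the minus strand of chromosome 12, and the human mimics themselves were not looked up. Capitals mark the seed, bases 2 to 8.
rno-miR-106b-5p (chr12:22157103-22157123): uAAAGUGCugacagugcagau
rno-miR-93-5p (chr12:22156894-22156916): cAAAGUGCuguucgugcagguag
rno-miR-25-3p (chr12:22156652-22156673): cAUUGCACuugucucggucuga
miR-106b and miR-93 had the same seed, AAAGUGC, and shared 16 of 21 bases counted from the 5′ end without gaps. The miR-25 seed, AUUGCAC, matched that seed at 3 of 7 positions. Of 693 mature rat miRNA names in the table, 5 carried the seed of miR-106b and miR-93 and 5 carried that of miR-25, among them miR-92a-3p and miR-32-5p. A site that pairs with the whole seed reads GCACTTT for miR-106b and miR-93 and GTGCAAT for miR-25. Target sites in the transcripts were not analysed here.

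Levels are given as RPKM, reads per kilobase of gene model scaled by a divisor for each library, as the authors deposited them. The paper names mapped reads as the divisor, but the divisors behind the deposited values were not whole numbers. How they were set is not given in the sources used here. The number of reads behind each value was recovered from the smallest steps between RPKM values, and reads on listed genes numbered between 15175185 and 18797234 per library. The 10 genes held 1.20% of these reads in the cel-miR-67 library, 1.13% after miR-106b, 1.25% after miR-93 and 0.663% after miR-25. The labelled cell type was checked on cardiomyocyte markers. The 11 of 12 markers matched by symbol were at 15.9 RPKM or more in every library, with a summed level of 23903 RPKM after cel-miR-67, 21098 after miR-106b, 16263 after miR-93 and 13611 after miR-25. In bulk RNA, fewer cells of a type and less RNA per cell cannot be told apart. Smooth muscle genes summed to 754, 696, 593 and 2059 RPKM and fibroblast genes to 901, 715, 811 and 387 in the same order of libraries. Endothelial genes summed to between 5.75 and 8.56 RPKM, with Cdh5, Tie1, Vwf and Emcn below 1 in every library, and macrophage genes to between 14.0 and 20.7, with Ptprc below 1. The 2 skeletal muscle genes that were matched, Actn3 and Tnnt3, were below 1 in every library.

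After miR-25, Atp2a2, Ryr2, Trdn and Casq2 were lower than in the control library by more than 2-fold, while Slc8a1, Jph2, Cacna1c and Sln stayed within 1.3-fold of it. All 11 cardiomyocyte markers were also lower after miR-25, with a median log2 difference of -0.98. Centred on that median, Ryr2, Trdn and Casq2 were within 1.3-fold, Slc8a1, Jph2, Cacna1c, Sln and Pln were higher past it, and of the genes above the RPKM limit Atp2a2 alone was lower past it. This centring raised every tested gene by 0.98 on the log2 scale, and the median of all tested genes before it was -0.012. A gene at that median was thus also higher past 1.3-fold after centring. Before centring, Pln and Cacna1c lay below that median, and Slc8a1 and Jph2 above it. The share of all tested genes past 1.3-fold after centring was not computed. After miR-106b and miR-93 Atp2a2 was not lower, Ryr2 and Casq2 were lower, and Hrc was more than 4-fold higher. The span between the highest and the lowest library was 20.5-fold for Hrc and 5.48-fold for Atp2a2, and between 1.17-fold and 2.45-fold for the other 8 genes.

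**Figure D1:**
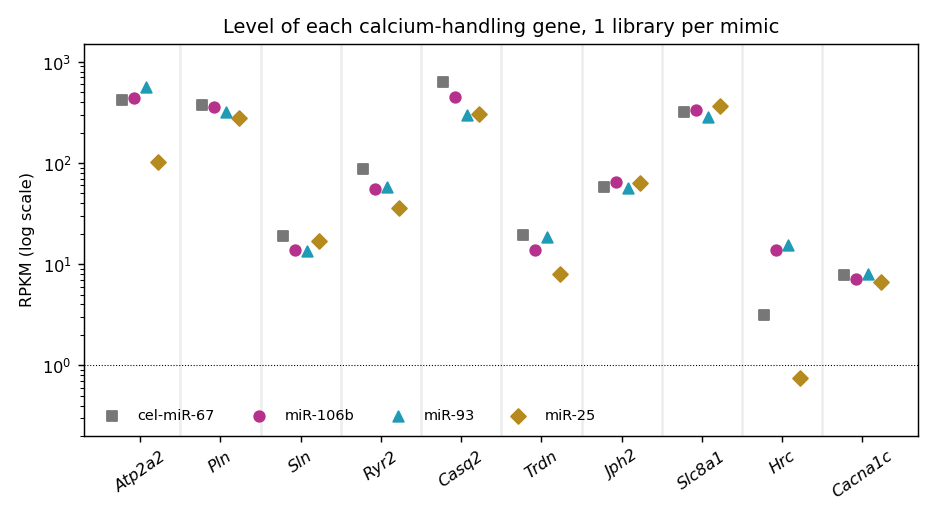
RPKM (log axis) of the 10 calcium-handling genes in the cel-miR-67, miR-106b, miR-93 and miR-25 libraries, 1 point per library, with the limit of 1 RPKM dotted. Atp2a2 lay at 103 RPKM after miR-25 and between 422 and 565 in the other libraries, and Hrc at 0.75 after miR-25 and above 13 after miR-106b and miR-93.

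Atp2a2, the gene of the pump, was listed at 422 RPKM after cel-miR-67, 434 after miR-106b, 565 after miR-93 and 103 after miR-25. The miR-25 library was far below the other libraries and the miR-93 library was the highest. The miR-25 level came from 19968 reads and the control level from 67986. A fold change is the ratio of RPKM in a mimic library over cel-miR-67, without a pseudocount, and its 95% exact interval was computed from the recovered reads and covers counting error only. On the log2 scale the difference of Atp2a2 was -2.03 after miR-25 (95% exact interval -2.06 to -2.01), a level 4.09-fold lower. It was 0.42 after miR-93 (0.41 to 0.43) and 0.04 after miR-106b (0.03 to 0.05). Among the 11198 genes above 1.0 RPKM in the miR-25 and control libraries, Atp2a2 stood at place 30 from the lowest ratio. Gene values do not separate the heart isoform of the pump from its other splice forms.

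Pln, the main inhibitor of the pump, was listed at 374 RPKM after cel-miR-67, 358 after miR-106b, 320 after miR-93 and 279 after miR-25. All 3 mimic libraries were below the control, the miR-25 library lowest, yet the spread was small beside that of Atp2a2. The log2 difference was -0.42 after miR-25 (-0.45 to -0.39), just past the 1.3-fold cutoff, and -0.22 after miR-93 and -0.06 after miR-106b. When the libraries were scaled to the reads on listed genes, Pln was at -0.27 after miR-25 and within the cutoff. Centred on the cardiomyocyte markers, it was at 0.56 after miR-25, higher and past the cutoff. That centring also brought a gene at the median of all tested genes past the cutoff. The small miR-106b difference of Pln was at 0.02 under either scaling. In RefSeq, Pln lies inside the gene Cep85l, and reads of genes that overlap may be shared.

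Sln, the second small inhibitor and better known from atrial muscle, was listed at 19.1 RPKM after cel-miR-67, 13.8 after miR-106b, 13.5 after miR-93 and 16.7 after miR-25. These levels rest on 129, 122, 110 and 136 reads, the fewest of any of the 10 genes apart from Hrc after miR-25. The log2 difference was -0.47 after miR-106b (-0.84 to -0.10) and -0.50 after miR-93 (-0.88 to -0.12). The miR-93 difference was within the cutoff at -0.28 when centred on the cardiomyocyte markers and at -0.35 when scaled to the reads on listed genes. After miR-25 it was -0.19 (-0.55 to 0.17), and a difference was not detectable at this depth.

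A ratio of 2 genes within a library does not depend on how that library was scaled. The level of Pln over that of Atp2a2 was 0.884 after cel-miR-67, 0.824 after miR-106b and 0.565 after miR-93, and it was 2.70 after miR-25 (95% exact interval 2.64 to 2.76). The miR-25 library was thus the one in which the inhibitor was listed above the pump. Sln over Atp2a2 was 0.0452 after cel-miR-67, 0.0317 after miR-106b, 0.0239 after miR-93 and 0.162 after miR-25 (0.136 to 0.192). Relative to the control library, these ratios were 3.05-fold and 3.59-fold higher after miR-25, and 0.639 and 0.529 of the control after miR-93.

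**Figure D2:**
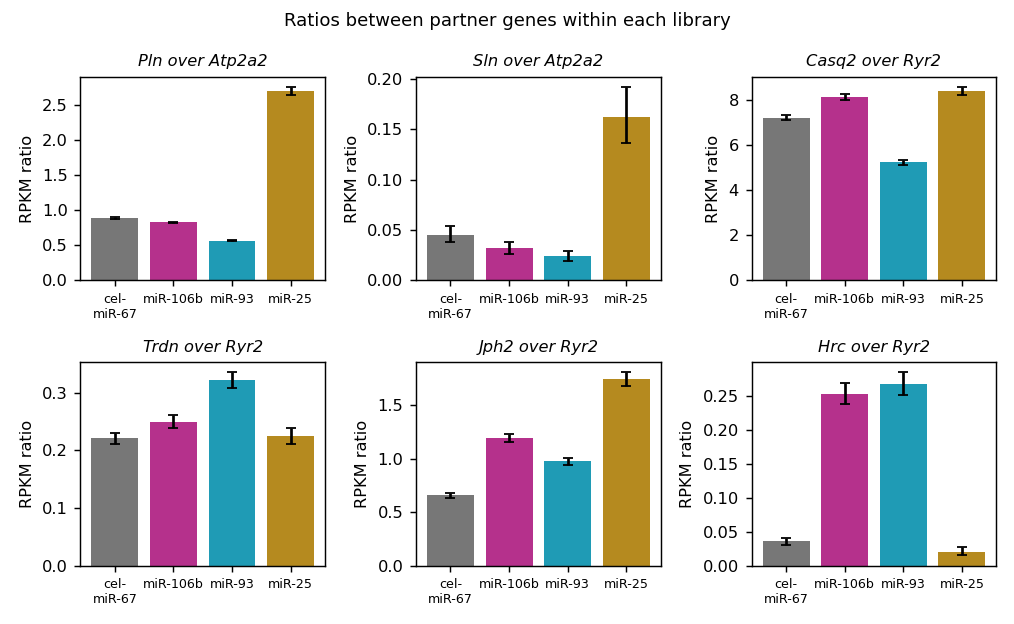
RPKM ratio of Pln and Sln to Atp2a2 and of Casq2, Trdn, Jph2 and Hrc to Ryr2 in each library, with bars from 0 and 95% exact counting intervals. Pln over Atp2a2 was 2.70 after miR-25 and between 0.565 and 0.884 in the other libraries.

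Ryr2, the release channel, was listed at 88.0 RPKM after cel-miR-67, 54.7 after miR-106b, 57.4 after miR-93 and 35.9 after miR-25. The control library was the highest, the miR-106b and miR-93 libraries were close to each other and the miR-25 library was the lowest. The log2 difference was -0.69 after miR-106b (-0.71 to -0.66), -0.62 after miR-93 (-0.64 to -0.59) and -1.29 after miR-25 (-1.32 to -1.26). Ryr2 was thus past the 1.3-fold cutoff with each mimic, and all 3 comparisons share the 1 control library. Centred on the cardiomyocyte markers, it was at -0.31 after miR-25 and within the cutoff.

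Casq2, which binds calcium inside the store, was listed at 636 RPKM after cel-miR-67, 445 after miR-106b, 301 after miR-93 and 302 after miR-25. The miR-93 and miR-25 libraries lay side by side at the bottom. The log2 difference was -0.51 after miR-106b (-0.54 to -0.49), -1.08 after miR-93 (-1.10 to -1.06) and -1.07 after miR-25 (-1.10 to -1.05), so Casq2 also passed the cutoff with each mimic. Centred on the cardiomyocyte markers, its miR-25 difference was -0.09 and within the cutoff. Casq2 over Ryr2 was 7.22 after cel-miR-67, 8.12 after miR-106b, 5.23 after miR-93 and 8.41 after miR-25.

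Trdn, which anchors calsequestrin at the release channel, was listed at 19.4 RPKM after cel-miR-67, 13.7 after miR-106b, 18.5 after miR-93 and 8.06 after miR-25. It was close to the control after miR-93 and lowest after miR-25. The log2 difference was -0.51 after miR-106b (-0.60 to -0.42), -0.07 after miR-93 (-0.16 to 0.01), where a difference was not detectable at this depth, and -1.27 after miR-25 (-1.38 to -1.16). Centred on the cardiomyocyte markers, the miR-25 difference was -0.29 and within the cutoff. Trdn over Ryr2 was 0.221 after cel-miR-67 (0.211 to 0.231), 0.25 after miR-106b, 0.322 after miR-93 (0.308 to 0.335) and 0.224 after miR-25 (0.211 to 0.239).

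Hrc, a calcium-binding protein of the store, showed the widest span of the group. It was listed at 3.16 RPKM after cel-miR-67, 13.9 after miR-106b, 15.4 after miR-93 and 0.75 after miR-25, from 182, 1050, 1071 and 52 reads. The miR-106b and miR-93 libraries were high, the control was low and the miR-25 library was lower still. The level was 4.40-fold higher after miR-106b (3.75 to 5.18) and 4.88-fold higher after miR-93 (4.17 to 5.75). After miR-25 it was 4.21-fold lower (3.08 to 5.84), but at 0.75 RPKM Hrc did not pass the limit of 1.0 and was not counted after miR-25. With a pseudocount of 1 RPKM the log2 differences were 1.84, 1.98 and -1.25 in place of 2.14, 2.29 and -2.07.

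Jph2, which holds the store and the surface membrane together, was listed at 57.9 RPKM after cel-miR-67, 65.4 after miR-106b, 56.0 after miR-93 and 62.7 after miR-25. Its 4 libraries were the closest of the 10 genes, with log2 differences of 0.18, -0.05 and 0.11 after miR-106b, miR-93 and miR-25. Against the lower Ryr2, Jph2 over Ryr2 went from 0.658 after cel-miR-67 to 1.19 after miR-106b, 0.976 after miR-93 and 1.75 after miR-25 (1.68 to 1.81).

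At the surface membrane, Slc8a1, the exchanger, was listed at 318 RPKM after cel-miR-67, 335 after miR-106b, 288 after miR-93 and 365 after miR-25. It was the only one of the 10 genes besides Jph2 that was listed higher after miR-25 than in the control, with a log2 difference of 0.20 (0.17 to 0.22), within the 1.3-fold cutoff. Cacna1c, the pore of the L-type channel, was listed at 7.82 RPKM after cel-miR-67, 7.09 after miR-106b, 7.97 after miR-93 and 6.71 after miR-25. Its log2 differences were -0.14 (-0.24 to -0.04), 0.03 (-0.07 to 0.12) and -0.22 (-0.32 to -0.12) after miR-106b, miR-93 and miR-25. RefSeq lists Dcp1b among the genes that overlap Cacna1c.

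**Figure D3:**
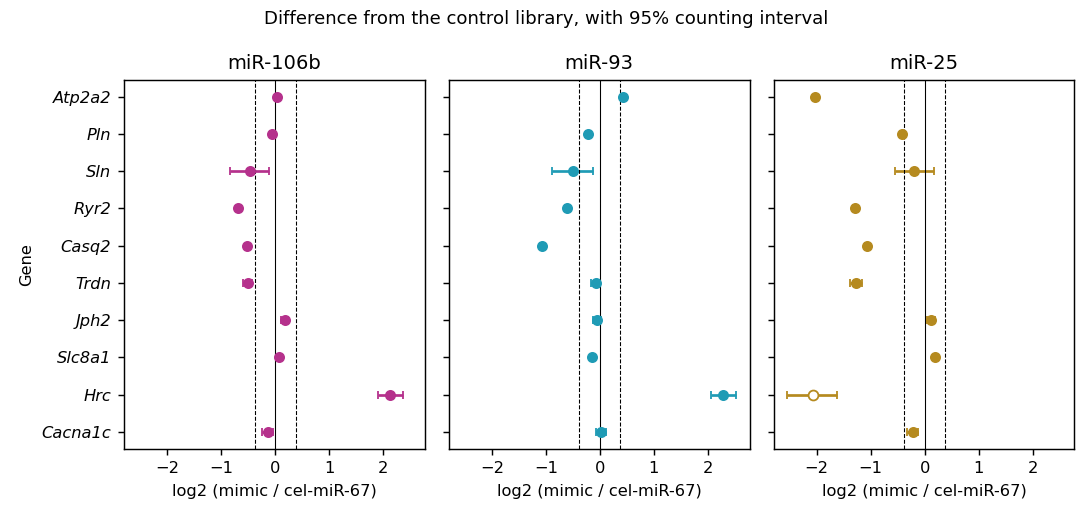
Log2 ratio of RPKM, mimic over cel-miR-67, for the 10 genes, 1 panel per mimic, with 95% exact counting intervals and dashed lines at 1.3-fold. Hrc is drawn open after miR-25, where it was below 1.0 RPKM. After miR-25, Atp2a2 was at -2.03 and Slc8a1 at 0.20.

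Counted over the group, genes past 1.3-fold were set against the share of all tested genes past the same cutoff. After miR-106b, 1 of 10 genes was higher (Hrc) and 4 were lower (Sln, Ryr2, Casq2 and Trdn), where 11.9% of 11296 tested genes were higher and 12.7% lower. After miR-93, 2 of 10 were higher (Atp2a2 and Hrc) and 3 lower (Sln, Ryr2 and Casq2), where 15.1% of 11280 genes were higher and 15.6% lower. After miR-25, 0 of the 9 genes above the RPKM limit were higher and 5 were lower (Atp2a2, Pln, Ryr2, Casq2 and Trdn), where 19.3% of 11198 genes were higher and 22.6% lower. When centred on the cardiomyocyte markers, the miR-25 counts became 5 higher and 1 lower. That centring raised every tested gene by 0.98 on the log2 scale, more than the cutoff of 0.38. A gene at the median of all tested genes was thus also higher past the cutoff. The shares above do not apply to these 2 counts, and those after centring were not computed. The median log2 difference of the group was -0.10 after miR-106b, -0.11 after miR-93 and -0.42 after miR-25, and the medians of all tested genes were -0.0033, -0.0018 and -0.012. For groups this small and chosen by name, these counts are a description of the libraries.

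The cardiomyocyte markers moved beside these genes. All 11 of them, which include the genes of troponins, myosins and actin, were lower past 1.3-fold after miR-25, with a median log2 difference of -0.98 and a range from -4.47 for Tnni3 to -0.48 for Tnnt2. When libraries were scaled to the reads on listed genes, 9 of the 11 were past the cutoff and all 11 were below 0. Centred on the median of these markers, Atp2a2 after miR-25 was at -1.05, Ryr2 at -0.31, Trdn at -0.29 and Casq2 at -0.09. In the same comparison Pln was at 0.56, Cacna1c at 0.76, Sln at 0.79, Jph2 at 1.09 and Slc8a1 at 1.18, all past the cutoff. The centring raised every tested gene by 0.98, so a gene at the median of all tested genes was past the cutoff too. The share of all tested genes past the cutoff after it was not computed. After miR-25, 4 of 6 smooth muscle genes were higher and 1 lower, and 7 of 10 tested fibroblast genes were lower and 1 higher. The part of a changed cell makeup in the values of the calcium genes was not tested. After miR-106b 3 of the 11 cardiomyocyte markers were lower and 1 higher, with a median of -0.08, and after miR-93 4 were lower and 2 higher, with a median of -0.21. Centred on that median after miR-93, the calcium genes had a median of 0.11 in place of -0.11, with 2 higher and 2 lower. The shares of all tested genes after this centring were not computed.

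**Figure D4:**
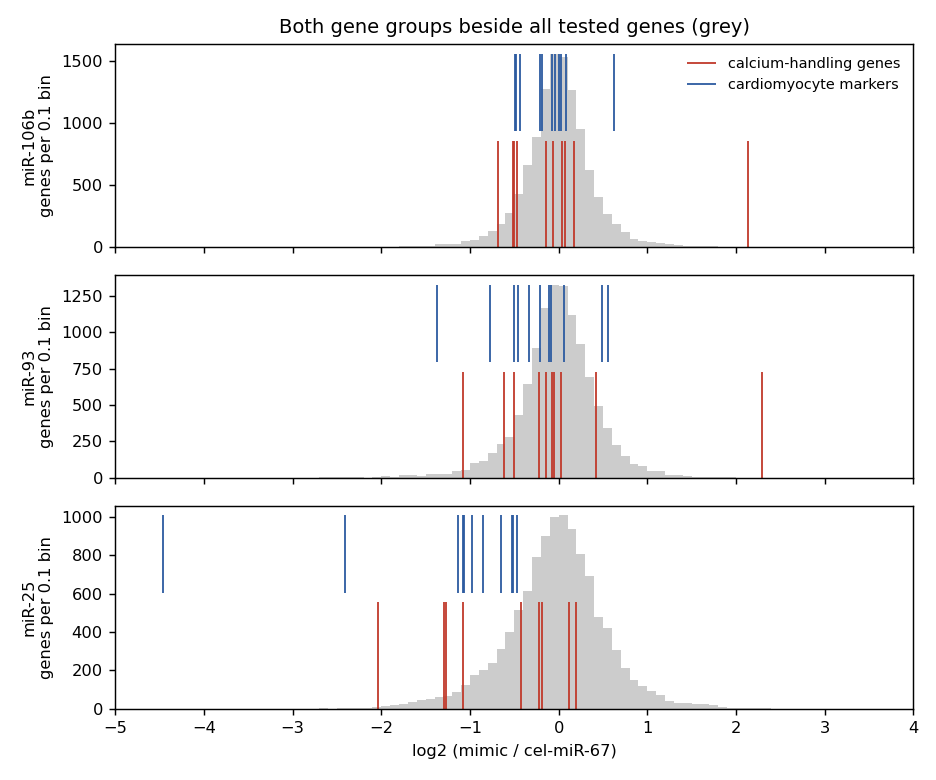
Number of all tested genes per 0.1 of the log2 ratio, mimic over cel-miR-67 (grey), with the calcium-handling genes as red lines and the cardiomyocyte markers as blue lines, drawn from -5 to 4. After miR-25 all 11 markers lay below 0, and the calcium genes ran from -2.03 to 0.20 with a median of -0.42. Centred on the markers, which raised all tested genes alike, that median was 0.56.

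The order of the levels per length differed between libraries. After cel-miR-67 it ran Casq2, Atp2a2, Pln, Slc8a1, Ryr2, Jph2, Trdn, Sln, Cacna1c and Hrc, from 636 down to 3.16 RPKM, and Trdn and Sln did not differ beyond counting error (ratio 1.02, 0.852 to 1.23). After miR-106b Casq2 was still highest, and Hrc, Sln and Trdn, at 13.9, 13.8 and 13.7 RPKM, could not be ordered. After miR-93 Atp2a2 was highest, and neither Ryr2 and Jph2 nor Hrc and Sln could be separated from each other. After miR-25 Slc8a1 was highest, followed by Casq2, Pln and Atp2a2, and all neighbours were separated beyond counting error. Among all 15731 genes, Atp2a2 ranked 107 from the top after miR-106b, 49 after miR-93 and 400 after miR-25.

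Mimic libraries were also compared with each other, which does not use the control library. Between miR-93 and miR-106b, which share a seed, 7 of 10 genes were within 1.3-fold, and Casq2 was lower after miR-93 (log2 difference -0.57). Atp2a2 (0.38, 95% exact interval 0.37 to 0.39) and Trdn (0.43, 0.35 to 0.52) were higher after miR-93. The intervals of Atp2a2 and Trdn included the cutoff, which is 0.38 on the log2 scale. Of 11391 genes tested between these libraries, 7.30% were higher and 8.21% lower after miR-93. Hrc differed by 0.15 (0.03 to 0.28) between them. Against miR-106b, miR-25 had 4 of 9 genes lower and 0 higher, where 23.0% of all tested genes were lower and 22.1% higher. Atp2a2 was at -2.07, Trdn at -0.76, Ryr2 at -0.61 and Casq2 at -0.56 in this comparison. Against miR-93, 3 of 9 genes were lower and 0 higher, where the shares over all tested genes were 23.0% and 22.1%. Atp2a2 was at -2.45, Trdn at -1.20 and Ryr2 at -0.68, while Casq2 did not differ detectably (0.01, -0.02 to 0.03).

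The genes whose differences from the control were nearest to those of Atp2a2 were found among 4044 other genes above 10 RPKM in all 4 libraries, by Euclidean distance over the 3 log2 differences. They were A930016O22Rik (distance 0.40), Ckm (0.42), Aars (0.51), Mlf1 (0.51) and Mb (0.52). Ckm, muscle creatine kinase and one of the 11 cardiomyocyte markers, was at -0.08, 0.56 and -2.41 in the order miR-106b, miR-93, miR-25, and Mb, myoglobin, at 0.24, 0.02 and -2.30. These distances rest on 4 libraries that share 1 control.

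Further lists placed the 10 genes among other genes of the calcium cycle. Of 86 genes on the lists, 79 were matched by symbol, and 64 were above the RPKM limit after miR-106b, 63 after miR-93 and 62 after miR-25. After miR-106b 8 were higher and 11 lower past 1.3-fold, which became 10 and 7 when scaled to the reads on listed genes. After miR-93 11 were higher and 13 lower, which became 22 higher and 8 lower when centred on the cardiomyocyte markers and 18 and 11 when scaled to the reads on listed genes. After miR-25 17 were higher and 18 lower, which became 49 and 2 when centred on these markers and 24 and 14 when scaled to the reads on listed genes. The shares of all tested genes given above are the background only for the counts without centring or scaling. Centring or scaling moved every tested gene of a comparison by the same amount, and the shares after it were not computed. After miR-25, centring on the markers also brought a gene at the median of all tested genes past the cutoff. Without it, the medians of the lists together were -0.03, 0.04 and 0.08.

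Of 7 matched regulators of uptake, 2 were higher and 0 lower of 5 tested after miR-106b, 3 and 0 of 5 after miR-93, and 1 and 3 of 4 after miR-25. Over all tested genes, 11.9% were higher and 12.7% lower after miR-106b, 15.1% and 15.6% after miR-93, and 19.3% and 22.6% after miR-25. Ppp1r1a, an inhibitor of protein phosphatase 1, was scarce, at 1.11 RPKM from 39 reads in the control. It was at 3.21 after miR-106b, 3.38 after miR-93 and 0.64 after miR-25. The miR-25 level rests on 27 reads and was below the RPKM limit, and its log2 difference was -0.80 (-1.56 to -0.05).

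Of the 18 matched genes of release, storage and the junction, 4 were higher and 6 lower after miR-25 among the 13 tested, and of 14 tested after the others, 4 were higher and 4 lower for miR-106b and 3 and 6 for miR-93. The shares over all tested genes are those given for the uptake list. Casq1, the calsequestrin best known from skeletal muscle, was listed at 127 RPKM after cel-miR-67, 167 after miR-106b, 49.8 after miR-93 and 373 after miR-25. It was thus lowest after miR-93 and highest after miR-25, with log2 differences of 0.39, -1.35 and 1.55, and in the miR-25 library it was listed above Casq2. Srl, sarcalumenin, another calcium-binding protein of the store, was lower with each mimic, at -0.43, -0.53 and -1.63. Jph1, a junctophilin related to Jph2, was listed at 2.78, 1.79, 1.51 and 0.59 RPKM after cel-miR-67, miR-106b, miR-93 and miR-25. After miR-25 Jph1 was below the RPKM limit and is not among the 13 tested.

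Of the 18 matched genes of entry, 7 were higher and 4 lower after miR-25 among 14 tested, against 1 and 1 for miR-106b and 2 and 3 for miR-93. Over all tested genes the shares higher and lower were 19.3% and 22.6% after miR-25, 11.9% and 12.7% after miR-106b, and 15.1% and 15.6% after miR-93. Rrad, a small GTPase that inhibits the L-type channel, was listed at 14.9 RPKM after cel-miR-67, 21.6 after miR-106b, 25.5 after miR-93 and 40.8 after miR-25. Cacna2d1, an auxiliary subunit of the channel, was listed at 27.2, 23.5, 14.9 and 14.0 in the same order, and Trpc6, a cation channel, at 8.07, 4.95, 6.67 and 4.42. On the log2 scale Rrad was at 0.53 (miR-106b), 0.77 (miR-93) and 1.45 (miR-25), whereas Cacna2d1 was at -0.21, -0.86 and -0.96 for the same mimics, beside a pore gene that stayed within the cutoff.

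For extrusion, 6 genes were matched and at most 3 tested. Fxyd1, phospholemman, which regulates the sodium pump, was lower with each mimic, at 278 RPKM after cel-miR-67, 196 after miR-106b, 126 after miR-93 and 148 after miR-25. Its log2 difference of -0.91 after miR-25, like those of Cacna2d1 and Mcu, was smaller than the median of -0.98 of the cardiomyocyte markers. Atp2b4, a calcium pump of the surface membrane, was scarce, at 2.02, 1.20, 0.998 and 1.87 RPKM, and was below the RPKM limit after miR-93. Among 9 mitochondrial genes, Mcur1, a regulator of the calcium uniporter, was higher with each mimic (0.76, 1.06 and 0.91), from 76 reads in the control, and Mcu, the pore of the uniporter, was at -0.92 after miR-25 and within the cutoff with the other mimics.

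Of 21 genes of calmodulin, kinases and phosphatases, 17 of the 19 tested stayed within 1.3-fold after miR-106b, 15 after miR-93 and 14 after miR-25. Past that cutoff over all tested genes were 11.9% higher and 12.7% lower after miR-106b, 15.1% and 15.6% after miR-93, and 19.3% and 22.6% after miR-25. Rcan1, an inhibitor of calcineurin, was listed at 158 RPKM after cel-miR-67, 75.8 after miR-106b, 31.4 after miR-93 and 122 after miR-25. It had the lowest ratio of all tested calcium genes after miR-93, at -2.33 (-2.40 to -2.26), and after miR-106b, at -1.06 (-1.11 to -1.0), and was at -0.37 after miR-25, within the cutoff. Camk2g, a calmodulin-dependent kinase, was at 0.66 after miR-25 (0.54 to 0.79) and near 0 with the other mimics.

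**Figure D5:**
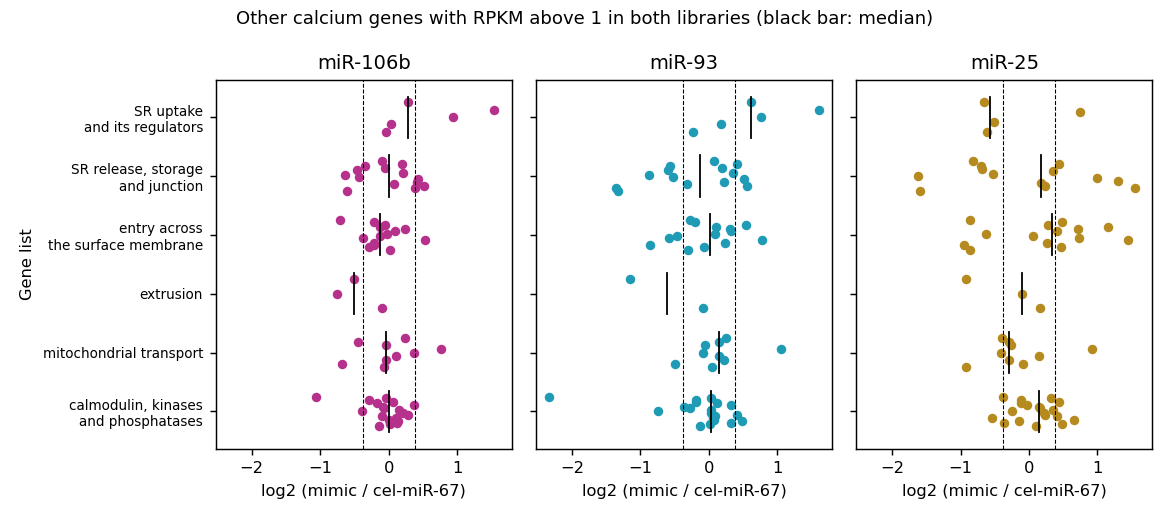
Log2 ratio of RPKM, mimic over cel-miR-67, for the other calcium genes above 1.0 RPKM in both libraries, by list, 1 point per gene, with medians as black bars and dashed lines at 1.3-fold. Rcan1 was lowest after miR-93 at -2.33, and Casq1 highest after miR-25 at 1.55.

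The start regions of Atp2a2 and Hrc, the genes with the widest spans between libraries, are shown for the contrast in their base composition. Of the 10 genes, 9 were matched in the RefSeq promoter table (build GRCr8), which holds 250 bases before and 50 after each start. Capitals mark CCAAT and GGGCGG on either strand, the motifs searched together with TATAA.
Atp2a2 (chr12:39733269-39733568, plus strand): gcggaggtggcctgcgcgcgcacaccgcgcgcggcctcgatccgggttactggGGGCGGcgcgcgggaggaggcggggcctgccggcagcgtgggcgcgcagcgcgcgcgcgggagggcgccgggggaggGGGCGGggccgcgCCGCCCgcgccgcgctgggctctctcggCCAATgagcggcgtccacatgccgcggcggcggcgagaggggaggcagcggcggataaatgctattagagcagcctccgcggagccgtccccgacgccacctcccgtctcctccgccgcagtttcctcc
Hrc (chr1:104949500-104949799, plus strand): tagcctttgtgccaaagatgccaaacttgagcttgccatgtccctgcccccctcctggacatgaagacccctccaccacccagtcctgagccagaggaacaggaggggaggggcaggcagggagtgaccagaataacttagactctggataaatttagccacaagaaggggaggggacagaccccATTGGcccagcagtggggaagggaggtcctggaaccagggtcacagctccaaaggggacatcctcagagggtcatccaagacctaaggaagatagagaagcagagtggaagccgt
The region of Atp2a2 was 79% G and C with 3 matches of GGGCGG and 1 of CCAAT, and that of Hrc was 56.7% G and C with 1 match of CCAAT. Ryr2, the other gene with GGGCGG, held 3 matches at 73% G and C, while the median of 27457 regions of this length was 52.3%. GGGCGG was found in 2 of the 9 genes and in 34.9% of all regions, CCAAT in 5 of 9 and in 37.7%, and TATAA in 0 of 9 and in 26.1%. These matches are letters in a window and say nothing of binding.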

How the data were processed

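RNA of the 4 cultures was sequenced as 50-base single reads. The authors checked reads with FASTQC, trimmed them with Cutadapt, mapped them to Rnor 6.0 with STAR (2.7 in the submitters' processing notes) and turned rounded gene counts into RPKM with edgeR's rpkm function. The deposited values are RPKM, and the program that assigned reads to genes is not given in the sources used here.

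Whole reads were recovered from the steps of the RPKM values, as whole numbers within 0.001, for all 15731 genes. The recovery was tested on simulated data. The divisors behind the RPKM values were not whole numbers and were used as they stand. No pseudocount was added, and the limit was RPKM above 1.0 in both libraries of a comparison. Intervals are 95% exact (Clopper-Pearson) and cover counting error only. With 1 library per mimic there is no test and no p-value.

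Named are the 10 members, the gene with the largest absolute log2 difference in each of 6 calcium lists and each mimic, and the 5 genes nearest to Atp2a2. A gene named by this rule is not reported here. The members and lists were chosen with earlier results of these data known. Alternatives were an RPKM limit of 2.0 or none, fold cutoffs of 1.5 and 2, pseudocounts of 0.1 and 1 RPKM, and centring on all tested genes or on cardiomyocyte markers. Scaling to the reads on listed genes was added after seeing the data. Versions were matplotlib 3.10.9, pandas 2.3.3, scipy 1.17.1 and numpy 2.4.6 under Python 3.11.15.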

Additional observations from a re-analysis of the deposited data

How the results depend on the processing

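No paired analysis was possible because each mimic has 1 library, and for the same reason no library could be left out. With a fold cutoff of 1.5, members lower after miR-106b numbered 1 and higher after miR-93 1, and the wider calcium lists had 3 higher and 6 lower after miR-106b, 5 and 8 after miR-93 and 10 higher after miR-25. With a cutoff of 2, members lower after miR-106b numbered 0, and after miR-93 1 was higher and 1 lower. The lists then had 1 higher and 1 lower after miR-106b, 2 and 4 after miR-93 and 4 and 2 after miR-25. Without an RPKM limit the lists had 14, 18 and 27 genes higher for the 3 mimics in the order miR-106b, miR-93, miR-25. The members' median after miR-25 was -0.75, since Hrc was then included. The shares of all tested genes past the cutoffs of 1.5 and 2, or without an RPKM limit, were not computed. These counts therefore show only how the numbers moved with the settings, not how the calcium genes stood beside other genes. Centring on the cardiomyocyte markers gave members' medians of -0.023, 0.11 and 0.56 and turned Pln after miR-25 to 0.56. It gave 5 members higher and 1 lower after miR-25, and in the lists 22 higher and 8 lower after miR-93 and 49 and 2 after miR-25. After miR-25 this centring also brought a gene at the median of all tested genes past the cutoff. Shares of all tested genes after this centring were not computed. Scaling to the reads on listed genes, chosen after seeing the data, raised the ratios by 0.083, 0.15 and 0.15 on the log2 scale. Members' medians became -0.017, 0.037 and -0.27, and the lists had 7 genes lower after miR-106b and 18 higher after miR-93. Under a limit of 2.0 RPKM, pseudocounts of 0.1 and 1 RPKM and centring on all tested genes, the counts of both groups were within 1.5 times those given and the medians kept their sign. Centring and scaling moved every tested gene of a comparison by the same amount, and the counts and medians moved with it. Why the markers and the share of reads on listed genes differed between the libraries was not tested. Depth limited Sln and, after miR-25, Hrc.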

Other observations

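Some calcium genes outside the rule for named genes, chosen after their values were seen, differed between the libraries as widely as the members. Ryr3, a ryanodine receptor of lower abundance, was listed at 4.0 RPKM after cel-miR-67, 2.61 after miR-106b, 1.59 after miR-93 and 1.32 after miR-25. Fkbp1b, which binds the ryanodine receptor, was at 1.54, 2.04, 1.80 and 3.77 RPKM, and Sri (sorcin), a calcium sensor that also binds it, at 29.6, 40.0, 42.3 and 59.1 in the same order. Both were thus highest after miR-25, where Ryr2 and Ryr3 were lowest. Orai2, a subunit of store-operated channels, was at 1.13, 1.04, 1.22 and 2.51 RPKM. Camk2a, a calmodulin-dependent kinase, was at 0.93, 1.24, 1.66 and 0.15 RPKM, below the limit in the control and the miR-25 library.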
